A study of Mus musculus with 4 samples.

Results

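Basophils and their precursors were followed here in the bone marrow of TLR9-/- and wild-type (WT) mice as the cells that carried RNA of 2 serine proteases, Mcpt8 and Prss34. A cell was taken as a member if its Mcpt8 and Prss34 transcripts together came to at least 5 unique molecular identifiers (UMIs, each marking 1 captured RNA molecule) and to at least 0.2% of all UMIs of the cell. Of the 39167 cells kept after filtering, 500 were members. The TLR9-/- libraries 1 and 2 contributed 185 and 120 of them, and WT libraries 1 and 2 contributed 124 and 71.

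The study asked how loss of TLR9, an endosomal receptor for unmethylated CpG DNA, bears on bone and on blood cell formation in the marrow. Mononuclear cells were prepared on Ficoll from the femur and tibia of C57BL/6 mice and sequenced from 5′ transcript ends, 1 library for each of 2 TLR9-/- mice and 2 WT mice. TLR9-/- was a whole-body genotype, not limited to basophils, and neither a treatment nor an age is given for these 4 mice in the sources used here. The methods describe 2 experiments, with a mouse of each genotype in both, but no label ties a library number to an experiment. Ficoll removes many dense granulocytes, so shares refer to the mononuclear fraction. TLR9-/- libraries held 50204578 and 63958243 UMIs in kept cells and WT libraries 31210188 and 41384657, of which members held 823914, 854287, 399631 and 295216. Members had a median of 3811 and 6396 UMIs per cell in TLR9-/- mice and 2886.5 and 3526 in WT, so the TLR9-/- members were read more deeply. No cell barcode of a member was shared between libraries. Values for the 4 libraries are given below in the order TLR9-/- 1, TLR9-/- 2, WT 1 and WT 2, and levels are CPM, that is UMIs of a gene scaled to one common UMI total for the cells named.

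Tlr9 (chromosome 9 of GRCm38, 106222598 to 106226883), the disrupted gene, cannot check the genotype labels within members, in which it had 1, 0, 0 and 0 UMIs. Over all kept cells it had 41, 48, 120 and 97 UMIs, so transcripts of the locus were still counted in the TLR9-/- libraries, at fewer UMIs than in the shallower WT libraries.

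Basophils are rare granulocytes that arise in the bone marrow from granulocyte and monocyte progenitors under the influence of IL-3 and of the transcription factors GATA2 and C/EBPα. They bind IgE through the high-affinity receptor FcεRI, and when that receptor is crosslinked they release histamine from granules, make lipid mediators and secrete cytokines such as IL-4. In mice, Mcpt8 and Prss34 encode basophil granule proteases, whereas chymases and tryptases of other families mark mast cells.

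The label was first checked against genes that the rule did not use. Fcer1a, the IgE-binding α chain of FcεRI, was at 2140, 2612, 1709 and 1894 CPM in members and at a mean of 2.95 CPM in the other cells. Cpa3, a carboxypeptidase of basophil and mast cell granules, was at 2375, 2718, 3065 and 2388 CPM against 7.30. Both genes were high in every library of members. When each cell was thinned to 1000 UMIs, Fcer1a was found in 73.9, 75.6, 69.0 and 73.2% of members and in 0.137, 0.0477, 0.0320 and 0.0554% of B lineage cells, which should lack it. Cpa3 was found in 72.8, 83.2, 83.6 and 81.7% of members and in 0.137, 0.0954, 0.128 and 0.0277% of B lineage cells.

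The starts of these genes are shown because they are the marker genes that hold the members together. RefSeq start sites (GRCm38.p6) were found for all 14 of the 14 basophil markers in the gene lists. The 250 bases before each start were searched for AGATAA on either strand (TTATCT on the opposite strand), letters of the kind that GATA factors recognise. They were present for 5 of the 14 markers (Cd200r3, Cpa3, Fcer1a, Ms4a2 and Prss34) and for 11.4% of the 27025 genes in the table (9.99% of its 32851 start sites). This is a match of letters and not a site of binding, and the letters were chosen with the sequences in view. The windows of the 2 receptor chains, Fcer1a (chr1:173227230-173227479, minus strand) and Ms4a2 (chr19:11623720-11623969, minus strand), and of the 2 granule enzymes, Cpa3 (chr3:20242182-20242431, minus strand) and Prss34 (chr17:25298144-25298393, plus strand), are printed 5′ to 3′ as the gene reads, with the matching letters in capitals.
Fcer1a: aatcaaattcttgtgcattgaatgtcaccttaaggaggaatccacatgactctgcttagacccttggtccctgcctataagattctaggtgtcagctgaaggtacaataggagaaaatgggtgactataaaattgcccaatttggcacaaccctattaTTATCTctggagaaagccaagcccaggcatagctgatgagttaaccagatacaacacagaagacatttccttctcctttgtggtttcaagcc
Ms4a2: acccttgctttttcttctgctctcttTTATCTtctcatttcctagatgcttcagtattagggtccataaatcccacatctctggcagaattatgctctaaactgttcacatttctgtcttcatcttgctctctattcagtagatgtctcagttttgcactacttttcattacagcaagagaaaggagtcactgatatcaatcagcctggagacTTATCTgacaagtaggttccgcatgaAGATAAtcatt
Cpa3: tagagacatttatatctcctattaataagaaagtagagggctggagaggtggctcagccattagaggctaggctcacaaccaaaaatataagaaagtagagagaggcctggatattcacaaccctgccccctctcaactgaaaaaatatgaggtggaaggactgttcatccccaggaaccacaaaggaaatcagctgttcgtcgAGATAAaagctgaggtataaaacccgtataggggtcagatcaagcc
Prss34: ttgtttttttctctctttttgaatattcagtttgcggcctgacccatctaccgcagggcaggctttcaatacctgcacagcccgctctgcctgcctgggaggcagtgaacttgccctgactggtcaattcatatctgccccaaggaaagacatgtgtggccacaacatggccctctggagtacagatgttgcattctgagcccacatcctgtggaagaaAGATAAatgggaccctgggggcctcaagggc
The match nearest to the start lay 92 bases upstream of it in Fcer1a, 11 in Ms4a2, 46 in Cpa3 and 31 in Prss34. Ms4a2 held 3 matches and the others 1 each.

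The values that chose the members are given as a description. Prss34 (chromosome 17, 25298394 to 25300165, plus strand) was at 46579, 55985, 49721 and 56443 CPM, and Mcpt8 (chromosome 14, 56082166 to 56085273, minus strand) was at 8335, 10765, 10820 and 11107 CPM. The other cells were at 10.1, 2.90, 6.30 and 4.87 CPM for Prss34 and at 7.39, 5.42, 3.96 and 2.46 CPM for Mcpt8. Prss34 had more UMIs than Mcpt8 in 482 of the 500 members (96.4%), 7 members held no Mcpt8 and 4 held no Prss34. There were 5.59, 5.20, 4.60 and 5.08 UMIs of Prss34 for each UMI of Mcpt8 in members, and 1.28, 0.234, 1.20 and 0.547 in myeloid progenitors outside them. In B lineage cells, 1.69, 1.02, 0.684 and 2.22% of cells held any UMI of either gene.

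The 20 genes that stood highest in members relative to all other cells were described without a test, since the members were chosen from the same cells. Receptor and surface genes led, with Fcer1a at 2088 ± 391 CPM (SD, n = 4 libraries), the FcεRI β chain Ms4a2 at 739 against 2.54 CPM in other cells, and Cd200r3, an activating receptor of basophils and mast cells, at 598 against 2.27. Of the granule and mediator genes, Cpa3 was at 2637 ± 327 CPM (SD, n = 4), Cyp11a1, which converts cholesterol to pregnenolone, was at 347 against 1.94, and Alox15, a lipoxygenase, was at 163 against 0.54. Gata2 was at 816 against 7.21 CPM. Secreted factors among the 20 were the chemokine Ccl3 at 946 against 20.4 CPM, Il4 at 151 against 1.18, the macrophage growth factor Csf1 at 176 against 2.66 and Il6 at 111 against 0.69. The heart and muscle LIM protein gene Csrp3, at 476 against 2.59 CPM, and the ribonuclease A family gene Rnase12, at 322 against 3.002, were also in this group. Itga2b, the αIIb integrin of platelets, was at 361 CPM in members and 1042 in megakaryocyte cells, so it was higher in members than in other cells together but not than in megakaryocytes.

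**Figure D1:**
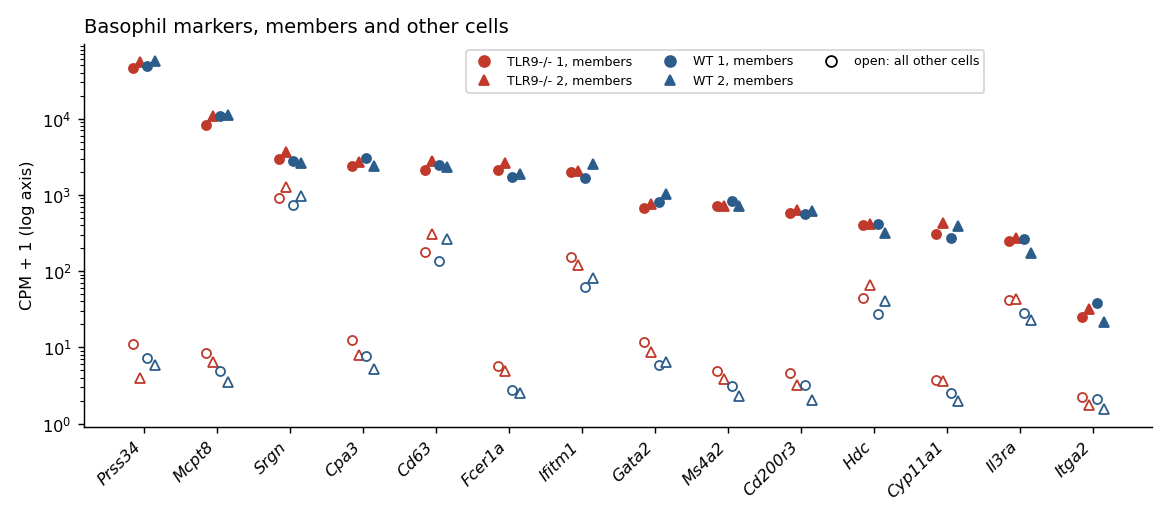
CPM + 1 on a log axis of the 14 basophil marker genes, with 1 point per library (red for TLR9-/-, blue for WT), filled for members and open for all other cells. Prss34 stands above every other marker in members (46579 to 56443 CPM). In other cells, Fcer1a, Ms4a2 and Cd200r3 had means of 2.95, 2.54 and 2.27 CPM, and Cpa3 had 7.30 CPM.

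Levels of other cell types' markers were measured in the same members. Mast cell genes summed to 14.6, 33.9, 10.0 and 3.39 CPM. 8 of the 10 (Mcpt1, Mcpt2, Mcpt4, Mcpt9, Tpsb2, Tpsab1, Mrgprb1 and Mrgprb2) were at 0 in all libraries, and the most abundant was Kit, the stem cell factor receptor, at 10.8 CPM. The chymase Cma1 had 16 UMIs, all in the TLR9-/- library numbered 2. Eosinophil genes summed to 134, 206, 185 and 234 CPM, against 46.6, 78.7, 32.7 and 50.2 CPM in the other cells. Alox15 was the largest part in members, and Ear1, Ear6 and Il5ra were at 0 there. Megakaryocyte genes, led by Itga2b, summed to 233, 468, 443 and 589 CPM, against 121, 111, 76.6 and 33.9 CPM. T and natural killer cell genes summed to 624, 720, 678 and 583 CPM, against 418, 438, 263 and 259 CPM. Nearly all of this sum in members was the single gene Nkg7, at a mean of 645 CPM. In members without marks of another lineage the sum was 686, 738, 728 and 626 CPM. Neutrophil granule genes summed to 16740, 7561, 5523 and 6541 CPM, led by S100a9 at 3780 CPM, against 57606, 77631, 48073 and 91358 CPM in the other cells. Erythroid genes summed to 2041, 510, 8097 and 2381 CPM, against 11219, 4679, 40252 and 9560 CPM in the other cells. B lineage genes summed to 320, 116, 535 and 417 CPM, against 1830, 1228, 4040 and 3093 CPM in the other cells. Monocyte genes summed to 1625, 1117, 658 and 369 CPM, against 7034, 7079, 5015 and 4599 CPM in the other cells. Clear marks of another lineage (at least 3 UMIs and 0.1% of the cell) were carried by 26, 14, 20 and 11 members, or 14.1, 11.7, 16.1 and 15.5%. Of these 71 members, 37 carried B lineage marks and 31 neutrophil marks, some with more than 1 lineage. No doublet caller was run, and whether such members are 2 cells in 1 droplet was not tested.

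Members formed a range and not a uniform group. Mcpt8 and Prss34 together took a median of 5.94% of a member's UMIs, with 70 members under 1%, 147 between 1 and 5% and 283 at 5% or more. Pooled over the libraries, from the low to the middle to the high group, the level of Fcer1a was 859, 1256 and 2917 CPM and that of Cpa3 was 1243, 1678 and 3326 CPM. Ctsg, the cathepsin G gene that lies next to Mcpt8, was at 1665, 2686 and 4286 CPM. All 3 genes were highest in the high group in each library, while the order of the low and middle groups varied between libraries. In the opposite order were Elane, the neutrophil elastase of granulocyte progenitors, at 2746, 1533 and 170 CPM, and Ifitm1, an interferon-induced membrane protein, at 3738, 2470 and 1489 CPM. Ifitm1 fell in this order in each library. Elane did so in 3 of the 4, and in TLR9-/- 2 it was at 224, 3040 and 55.7 CPM. Of the 678 Elane UMIs in the low group, 569 came from TLR9-/- 1. Gata2 moved less in the pooled cells, at 636, 677 and 842 CPM. Since the groups were formed from the rule genes, these levels have no test.

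Just inside the threshold, 29 members with rule genes under 0.4% of their UMIs held Fcer1a at 816 CPM, Cpa3 at 894 CPM and Elane at 2805 CPM. Just outside it, 46 cells with 5 or more UMIs of the rule genes but under 0.2% held Fcer1a at 138 CPM, Cpa3 at 274 CPM and Elane at 7683 CPM. Both sets were pooled over libraries in unlike shares, with 17, 4, 6 and 2 cells inside and 28, 12, 4 and 2 outside.

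The neighbours of the rule genes were measured in members because both genes lie in protease clusters. Within 250 kb of Mcpt8, 7 of 19 other coding genes had any UMI in members and 4 were above 10 CPM. Ctsg stood at 3235, 4463, 3000 and 2412 CPM, Gzmb at a mean of 11.7 CPM and Gzmc at 5.88 CPM. Within 250 kb of Prss34, 12 of 21 other coding genes had a UMI and 8 were above 10 CPM. Prss28, a related serine protease gene, was at a mean of 22.4 CPM in members and 0.0132 CPM in other cells, while the mast cell tryptase genes Tpsab1 and Tpsb2 in the same window had no UMI.

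Members took a larger share of cells in both TLR9-/- libraries than in either WT library over all kept cells, but not over the cells with at least 1000 UMIs. Over all kept cells, the share was 1.72% (95% Clopper-Pearson interval 1.48 to 1.98), 1.35% (1.12 to 1.61), 1.17% (0.976 to 1.40) and 0.798% (0.624 to 1.01). These intervals cover counting error only. TLR9-/- mice averaged 1.53 ± 0.262% and WT mice 0.986 ± 0.265% (SD, n = 2), a log2 ratio of 0.64. The groups did not overlap, but TLR9-/- 2 and WT 1 lay close together, with overlapping intervals. The two-sided exact permutation test gave p = 0.33, the smallest that 2 libraries against 2 allow. A stricter rule of 20 UMIs and 2% of UMIs left 1.27, 1.07, 0.946 and 0.618%. Cells were read more deeply in TLR9-/- libraries (a median of 2523, 3592.5, 1742 and 2269 UMIs in non-members). Cells with at least 1000 UMIs numbered 8884, 8452, 7860 and 7739, so that more shallow cells left some libraries than others. Members made up 2.07, 1.41, 1.48 and 0.917% of these cells before thinning, an alternative added after seeing the data, and 1.85, 1.33, 1.40 and 0.892% after thinning each to 1000 UMIs. In both, TLR9-/- 2 was below WT 1, so the groups overlapped (exact permutation p = 0.67), with log2 ratios of means of 0.54 and 0.47. Among cells with at least 2000 UMIs it was 2.29, 1.77, 1.754 and 1.18%, with TLR9-/- 2 and WT 1 nearly equal. Shares of all cells also move with the numbers of the other cell types. Each library was 1 mouse, so p values measure the spread between mice together with that between libraries.

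**Figure D2:**
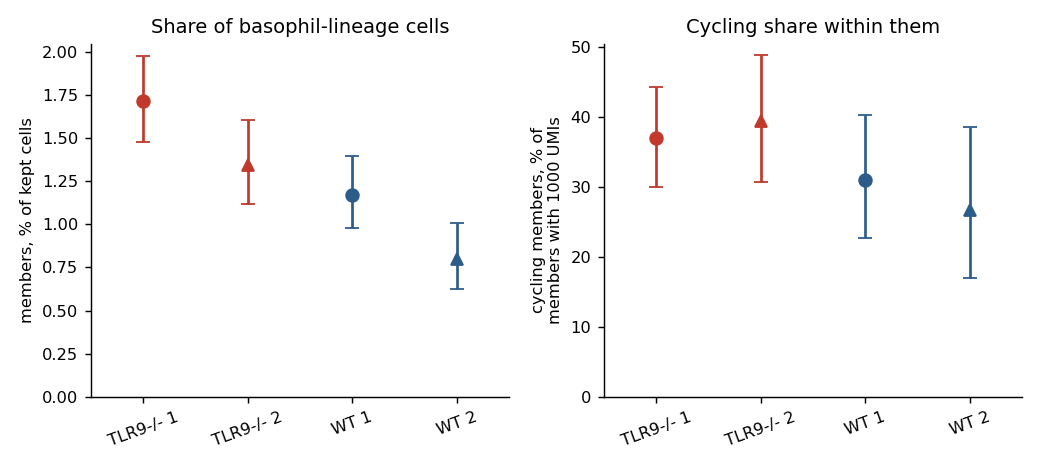
Percent of kept cells that were members and percent of members with at least 2 UMIs of G2 and mitosis genes after thinning to 1000 UMIs, for each of the 4 libraries, with bars for 95% Clopper-Pearson intervals. Members made up 1.72 and 1.35% of cells in TLR9-/- libraries and 1.17 and 0.798% in WT libraries.

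Gene expression within members was then compared between genotypes, with the UMIs of the members summed per library. None of the tested genes that define basophils passed the test. The 9 genes that did were noncoding or duplicated genes, a neutrophil granule protease, a histone, a globin and an immunoglobulin segment. Of 6168 genes tested with edgeR's quasi-likelihood test, 4 were higher (0.0649%) and 5 lower (0.0811%) in TLR9-/- members at an adjusted p under 0.05. At an unadjusted p under 0.05 there were 419. Without 1 library the test called 57 genes (TLR9-/- 1 left out), 37 (TLR9-/- 2), 67 (WT 1) and 48 (WT 2), so the count depends on each library. The median log2 fold change over all tested genes was −0.02.

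None of the 12 basophil markers tested passed, and their median log2 fold change was −0.04. Fcer1a was at 2376 ± 334 CPM in TLR9-/- members and 1801 ± 130 CPM in WT members (SD, n = 2), with a log2 fold change of 0.34 (SE 0.21, adjusted p = 0.785). Both TLR9-/- libraries were above both WT libraries for Fcer1a, by less than the test could separate from the spread. Cpa3 overlapped between genotypes, with a log2 fold change of −0.16 (SE 0.22, adjusted p = 0.92). Ms4a2 was at 714, 708, 823 and 711 CPM, and Fcer1g, the signalling γ chain shared by Fc receptors, was at 3650, 3589, 4114 and 3513 CPM. With 2 libraries per genotype, a gene that misses the threshold is not shown to be equal.

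None of the 14 genes of the IgE receptor and its signalling passed (median −0.16), nor any of 9 granule and mediator genes (median 0.08). Hdc, the enzyme that makes histamine, was at 396, 412, 410 and 318 CPM, which overlapped. None of the 10 cytokine receptor genes passed (median −0.44). Il3ra, the α chain of the IL-3 receptor, was at 250, 272, 260 and 169 CPM. Il18r1, the IL-18 receptor chain, was at 27.9, 24.6, 70.1 and 67.7 CPM, lower in both TLR9-/- libraries, with a log2 fold change of −1.45 and an adjusted p of 0.193. Among 12 transcription factors (median −0.18), none passed either. Gata2 was at 666, 769, 808 and 1020 CPM, and Gata1 at 40.1, 52.7, 37.5 and 50.8 CPM.

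Of 9 cytokine and chemokine genes, none passed (median −0.12). Il4 was at 166, 131, 185 and 122 CPM, with overlap. Csf1 was at 107, 147, 180 and 268 CPM, lower in both TLR9-/- libraries, at a log2 fold change of −0.87 (SE 0.27, adjusted p = 0.527). Ccl9, a chemokine of the same chromosome 11 cluster as Ccl3, was at 148, 160, 238 and 403 CPM, with an adjusted p of 0.269. Ccl4 differed more between library numbers than between genotypes, at 1469, 84.3, 1041 and 241 CPM. The early response gene Ier2 also differed more between library numbers than between genotypes, at 714, 188, 586 and 180 CPM. None of 4 Toll-like receptor and adaptor genes, 7 interferon response genes or 11 early response and heat shock genes passed.

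**Figure D3:**
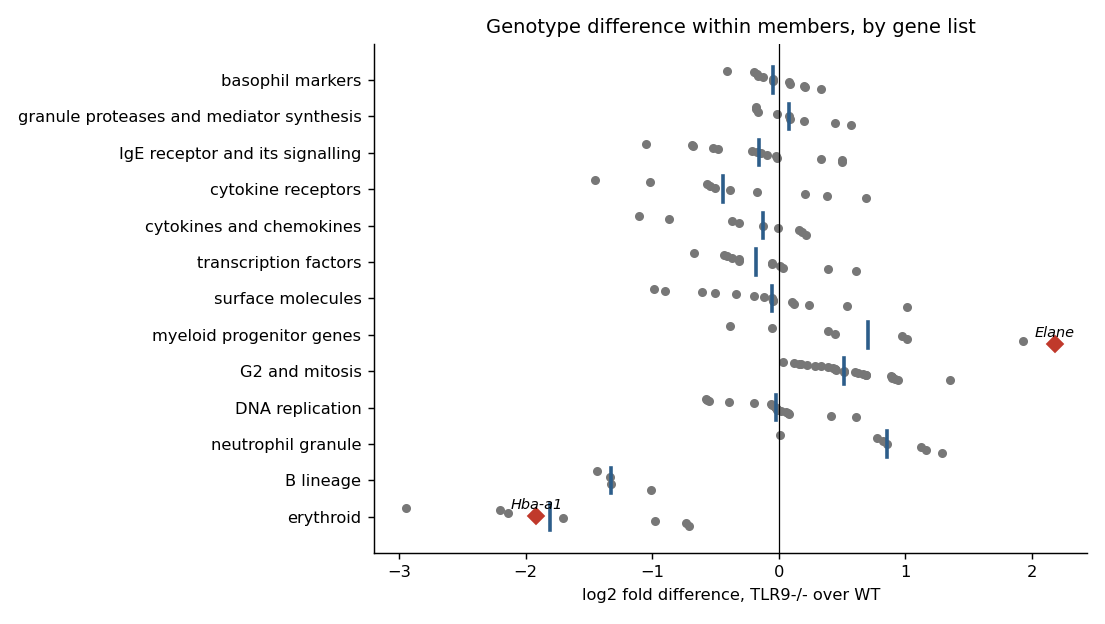
Log2 fold change of TLR9-/- over WT members for each tested gene of the gene lists, with 1 point per gene, the list median as a bar and called genes as diamonds. The basophil marker list centres near 0 (median −0.04) and the cytokine receptor list lies below it (median −0.44). The G2 and mitosis list lies above 0 (median 0.51) and the erythroid list below it (median −1.81).

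The genes that rose were led by 3 of uncertain counting. BC018473, annotated as an antisense RNA (chromosome 11, 116752167 to 116759373), had 133, 191, 0 and 0 UMIs and was at least 44.7-fold higher in TLR9-/- members, taking 3 UMIs over the WT group as the floor. It was read in 90 and 75 TLR9-/- members. The processed pseudogene Gm6594 had 54, 89, 0 and 0 UMIs (at least 19.7-fold higher) and the lincRNA Gm35082 had 33, 45, 0 and 0 (at least 10.8-fold higher). These 3 genes were present in both TLR9-/- libraries and absent from the members of both WT libraries. BC018473 was at 28.0, 55.8, 0 and 0 CPM in B lineage cells as well, Gm6594 at 68.5, 74.4, 0 and 0 CPM and Gm35082 at 45.8, 76.3, 0.101 and 0 CPM. Whether such on-off differences go with Tlr9 or with other differences between the TLR9-/- and WT mice cannot be told apart here. Reads of an antisense RNA or a pseudogene may be shared with a partner gene or parent gene.

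Elane, the fourth gene that rose, was at 1262, 936, 290 and 169 CPM, a log2 fold change of 2.18 (SE 0.29, adjusted p = 0.00999). Few members carried most of it: 48, 32, 23 and 19 members had an Elane UMI, or 25.9, 26.7, 18.5 and 26.8%, and the 3 members with most UMIs held 764 of 1040, 746 of 800, 48 of 116 and 31 of 50 UMIs. In the TLR9-/- library numbered 2, 1 cell held 724 of 800 UMIs. The call was lost with a wider rule of 3 UMIs and 0.1% (log2 fold change 1.70, adjusted p = 0.0669), without cycling members (1.58, adjusted p = 0.866) and after thinning each member (1.11, adjusted p = 0.92). In non-cycling members Elane was at 1553, 141, 308 and 256 CPM, where the genotypes overlapped and TLR9-/- 2 was below both WT libraries. In myeloid progenitors Elane was at 13746, 17180, 16155 and 19653 CPM, with overlap between genotypes. In all other cells together it was at 4194, 6280, 2526 and 3836 CPM, higher in both TLR9-/- libraries, as in members. The part of RNA from those cells in the difference between members was not tested. Prtn3, proteinase 3 of the same granules, was at 1191, 801, 345 and 149 CPM, and Mpo, myeloperoxidase, at 1585, 2051, 948 and 823 CPM. Both were higher in the TLR9-/- libraries without passing the test (adjusted p = 0.0607 and 0.213). They were higher in both TLR9-/- libraries in all other cells too. Prtn3 was at 3931, 5253, 1990 and 2561 CPM there and Mpo at 1780, 3189, 832 and 1249 CPM. Of the 8 myeloid progenitor genes tested, 1 was called, with a median log2 fold change of 0.71. With the replicate number as a block, which no label states to pair the libraries, 3 were called. With 1 library left out, 3 of these genes were called without TLR9-/- 1 or WT 1 and 2 without TLR9-/- 2 or WT 2, and the median was 0.32 without TLR9-/- 2.

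Of the genes that fell, 2 were at 0 in all TLR9-/- members. Trim12a, a tripartite motif gene, had 0, 0, 21 and 19 UMIs, at least 32.2-fold lower, and Naip5, a sensor of bacterial flagellin, had 0, 0, 11 and 6, at least 13.7-fold lower. Trim12a was also at 0, 0, 48.1 and 51.4 CPM in B lineage cells. Trim12a and Naip5 belong to families with near-identical copies, so their counts are uncertain. The call of Naip5 was lost without either TLR9-/- library and that of Gm35082 without TLR9-/- 2. Hist1h2ac, a histone H2A gene with many near copies, was at 44.9, 29.3, 163 and 152 CPM (log2 fold change −2.15, SE 0.29, adjusted p = 0.0106) and was spread over 32, 19, 32 and 27 members. It was also lower in both TLR9-/- libraries in B lineage cells (7.53, 4.07, 34.6 and 42.3 CPM), in myeloid progenitors (4.01, 3.58, 22.7 and 24.3 CPM) and in all other cells (5.45, 3.64, 24.3 and 29.4 CPM). In members it lost the call without cycling members (log2 fold change −1.94, adjusted p = 0.183) and after thinning (−1.37, adjusted p = 0.867).

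Hba-a1, an α globin gene, was at 225, 133, 611 and 688 CPM (log2 fold change −1.91, SE 0.28, adjusted p = 0.0129). The 3 members with most UMIs held 90.3, 89.5, 83.2 and 96.1% of it. In all other cells it was at 974, 1133, 3572 and 2644 CPM, also lower in both TLR9-/- libraries, and the part of RNA from those cells in the difference between members was not tested. Without the members that carried marks of another lineage, the log2 fold change was −0.73 and the gene was not called. The immunoglobulin segment Igkv10-96 had 6, 0, 28 and 25 UMIs, in 4, 0, 2 and 1 members, and no UMI in members free of other marks. All 8 erythroid genes had a negative log2 fold change (median −1.81), with 1 call, or 4 with the replicate number as a block. All 4 B lineage genes were negative too (median −1.33), with no call. All 7 neutrophil granule genes were positive (median 0.86), with no call. Of 5 monocyte genes, 4 were positive (median 1.27), with no call. Monocyte genes summed to 581, 652, 282 and 311 CPM in members without marks of another lineage. In members without marks of another lineage, which were chosen by some of these same genes, 3 of 5 erythroid genes tested were positive (median 0.31), 0 of 5 neutrophil granule genes were (median −1.03) and 1 B lineage gene was tested (−0.19). The neutrophil granule median was 0.17 with 2 of 7 genes negative without TLR9-/- 1, and 1.33 with 6 genes called without TLR9-/- 2, while 1 gene was called without WT 1 and 2 without WT 2. Of the erythroid genes, 5 were called lower without TLR9-/- 1 and 4 without each other library, and 3 B lineage genes were called lower without TLR9-/- 1 or WT 2.

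**Figure D4:**
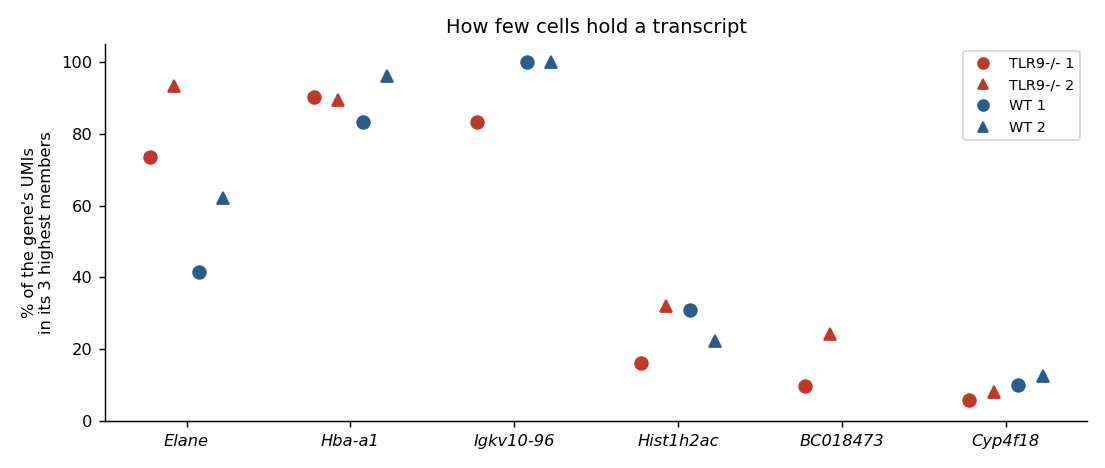
Percent of a gene's UMIs that sat in the 3 members with most UMIs, for 5 genes called between genotypes and for Cyp4f18, with 1 point per library that had a UMI of the gene. Elane (41.4 to 93.2%) and Hba-a1 (83.2 to 96.1%) lie far above Hist1h2ac (16.2 to 32.0%).

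Genes of G2 and mitosis were read next, since precursors divide and mature basophils do not. All 26 genes of the list had a positive log2 fold change in TLR9-/- members, with a median of 0.51, and none was called. Ube2c, which helps to degrade mitotic cyclins, was at 562, 803, 388 and 312 CPM. Top2a, the topoisomerase that untangles chromosomes, was at 312, 301, 248 and 295 CPM. Both were higher in each TLR9-/- library than in either WT library, without passing the test. Of 17 DNA replication genes, 6 were positive and 11 negative (median −0.02, none called). With 1 library left out, at most 3 of the mitosis genes tested were negative. Their median was 0.80 without TLR9-/- 1 and 0.35 without TLR9-/- 2.

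To count dividing members, each was thinned to 1000 UMIs, which left out 10 shallower members, and called cycling with at least 2 UMIs of the 26 genes. The share was 37.0% (68 of 184, interval 30.0 to 44.4), 39.5% (47 of 119, 30.7 to 48.9), 31.03% (36 of 116, 22.8 to 40.3) and 26.8% (19 of 71, 16.9 to 38.6). TLR9-/- libraries lay above WT libraries without overlap, although the counting intervals overlapped. The means were 38.2 ± 1.80% and 28.9 ± 3.02% (SD, n = 2), a difference of 9.33 percentage points, and the two-sided exact permutation p was 0.33, the smallest possible. Before thinning the shares were 46.5, 53.3, 37.1 and 43.7%, also without overlap. Thinned to 2000 UMIs they were 49.3, 47.3, 47.6 and 36.8%, and TLR9-/- 2 then lay just below WT 1 (exact permutation p = 0.67). Counted with the DNA replication list instead, they were 30.4, 31.1, 25.9 and 26.8%. Myeloid progenitors were at 56.0, 54.5, 52.2 and 54.8% and T cells at 1.95 to 5% over the libraries, so members lay between them in each library. The call is a cut along a range: 48 members had 1 UMI of the list and 26 had 2.

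Cycling and non-cycling members were compared within the same libraries. Cycling members had lower levels of chemokine and cytokine genes and of several receptor genes, while Fcer1a, Ms4a2 and Cpa3 did not pass the test. The 170 cycling members had a median of 5589.5 UMIs and the 320 non-cycling members 3138.5. Of 4695 genes tested by edgeR's quasi-likelihood test with library as a block, 410 were higher in cycling members (8.73%) and 424 lower (9.03%), and 1430 had an unadjusted p under 0.05. The median over all tested genes was −0.02. The called total of 834 was 485 without TLR9-/- 1 and 524 without WT 1. Genes of the G2 and mitosis list were left out, as they chose the cells.

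Of 9 cytokine and chemokine genes, 7 were lower in cycling members, and the median log2 fold change was −1.50. Ccl9 was at 46.0, 63.7, 54.0 and 101 CPM in cycling members and 241, 280, 370 and 608 CPM in non-cycling members, a log2 fold change of −2.47 (SE 0.17, adjusted p = 2.55e-10). Ccl6 was at 202, 403, 102 and 294 against 1170, 1514, 1370 and 965 CPM (−2.44, SE 0.20). The 2 groups did not overlap for either gene. Ccl3 (−1.50, SE 0.14) and Ccl4 (−1.95, SE 0.18) fell too and were lower in the cycling members of each library. These 4 genes lie together on chromosome 11, from Ccl9 at 83572919 to Ccl4 ending at 83664683. The growth factor gene Csf1 fell by 1.38 on the log2 scale, Osm, encoding oncostatin M, by 1.93, and Il4 by 0.86. Il4 was at 138, 97.7, 78.0 and 109 CPM in cycling members against 192, 173, 255 and 131. Il6 did not pass (−0.54, adjusted p = 0.0573) and neither did Hgf, the hepatocyte growth factor gene. In every alternative fit, all tested genes of this list were negative.

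**Figure D5:**
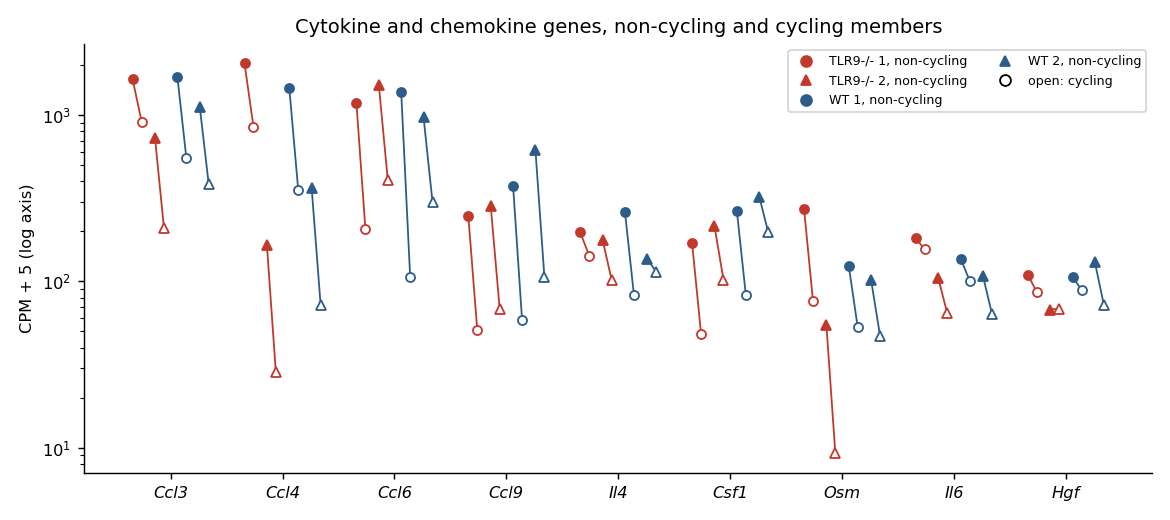
CPM + 5 on a log axis of the 9 tested cytokine and chemokine genes, filled for non-cycling and open for cycling members, with a line joining both values of each library. Lines fall to the cycling members in every library for the 7 genes called (Ccl3, Ccl4, Ccl6, Ccl9, Il4, Csf1 and Osm).

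Among the basophil markers, 4 of 12 fell (median −0.26). Ifitm1 was at 973, 1112, 816 and 923 CPM in cycling members and 2892, 3175, 2317 and 3601 CPM in the others (log2 fold change −1.69, SE 0.10, adjusted p = 1.43e-11). Cyp11a1 fell by 0.69, Hdc by 0.46 and Gata2 by 0.42. Fcer1a (0.21, SE 0.10, adjusted p = 0.177), Cpa3 (0.14, SE 0.09, adjusted p = 0.286) and Ms4a2 (−0.01, SE 0.12, adjusted p = 0.987) did not pass. The rule gene Mcpt8 was at 9691, 12873, 12648 and 14177 CPM in cycling members against 7101, 8170, 9485 and 9030 in the others. This is a description, because the rule used it. Both rule genes together took a median of 8.39% of UMIs in cycling and 4.73% in non-cycling members, higher in cycling members of each library. From the low to the high rule gene group Ifitm1 also fell, while Fcer1a and Cpa3 rose. Whether differences by cycling follow those in rule gene level was not tested. The count of marker genes that fell was 1 without library as a block, 2 without TLR9-/- 1 and 2 without WT 1.

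Of 8 granule and mediator genes, 4 fell and 1 rose. Slc18a2, the vesicle transporter that loads histamine, fell by 0.86 and Alox5ap, a partner of 5-lipoxygenase in leukotriene synthesis, by 0.55, beside Hdc and Cyp11a1. Ctsg rose by 0.57 (SE 0.08), at 4000, 5396, 3618 and 3148 CPM against 2545, 3316, 2621 and 1914. Of 14 IgE receptor and signalling genes, 3 fell: Fcer1g by 0.28, the adaptor Lat2 by 1.04 and the kinase Btk by 0.90. Without TLR9-/- 1 or WT 1, 1 of these genes fell. Of 10 cytokine receptor genes, 4 fell. Csf2rb, the signalling chain shared by the receptors of IL-3, IL-5 and GM-CSF, was at 130, 272, 156 and 193 CPM against 276, 450, 308 and 449 (−1.03, SE 0.15). Csf2rb2 fell by 1.46, Il18r1 by 1.03 and Il7r by 1.98, while the IL-3-specific chain Il3ra had a value of 0.01 (SE 0.14).

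Of 11 transcription factors, 4 fell: Gata2, Cebpa by 0.72, Stat5b, a signal transducer of IL-3 family receptors, by 1.47, and Nfil3, an IL-3-regulated factor, by 1.23. Of 14 surface genes, the integrin genes Itgam, Itgb2 and Itgb7, the tetraspanin gene Cd9 and the inhibitory receptor gene Cd300a fell, and Ly6e rose by 0.30. The surface genes that fell numbered 1 without TLR9-/- 1 and 2 without WT 1, and the transcription factors 1 without TLR9-/- 1. Of 7 myeloid progenitor genes, 3 rose (median 0.41): Mpo by 0.83, Ctsg, and Ms4a3, a membrane protein gene of granulocyte and monocyte progenitors, by 0.42. None of the 7 was called with at least 3 UMIs of the list or without library as a block, and without TLR9-/- 2 the median was 0.09, with 2 genes higher and 1 lower. Mpo was at 2086, 2643, 1110 and 1284 CPM in cycling members and 1133, 1321, 855 and 511 CPM in the others. It was higher in the cycling members of every library.

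Of the genes that rose, those with the smallest adjusted p outside the list that chose the cells are given here. Hmgb2, a chromatin protein of dividing cells, was at 3993, 3857, 4032 and 3752 CPM against 1089, 1067, 960 and 1096 (log2 fold change 1.83, SE 0.09, adjusted p = 1.95e-12). The histone variant gene H2afz rose by 1.59, the tubulin genes Tubb5 by 2.04 and Tubb4b by 2.45, Cdca8 of the chromosomal passenger complex by 3.63 and Cdca3 by 3.88. Of 15 DNA replication genes, 3 rose: Tyms by 1.23, Rrm1 by 1.44 and Rrm2 by 1.90, all of nucleotide synthesis. Among those that fell furthest in rank after the chemokines were Ypel3, linked to growth arrest (−2.11), the galectin gene Lgals3 (−1.86) and Cd7 (−3.68). Csrp3 (−1.29), the receptor gene Lilr4b (−1.37), Txnip (−1.65) and the signalling adaptor Tyrobp (−0.75) were among them too.

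Markers of other cell types also moved with this split. Of 7 neutrophil granule genes, 4 fell (Ngp, Ltf, Retnlg and S100a8, median −1.51), and of 8 erythroid genes, 2 rose (Hbb-bt and Car1, median 1.18). Both lists turned on single libraries. The neutrophil list had 2 calls without WT 1, 7 without WT 2 and a median of −0.34 without TLR9-/- 2, and the erythroid list had 0 calls without TLR9-/- 1, 6 without TLR9-/- 2 and 1 without either WT library. Their part in the results was not tested. In the members without marks of another lineage, 7 of 9 cytokine and chemokine genes were lower, and of 12 basophil markers 4 were lower and 1 higher. Of 5 neutrophil granule genes tested there, 1 was called higher and 0 lower (median −0.33). Depth moved with the split as well. On thinned UMIs, 315 genes were called, with 5 of 7 cytokine and chemokine genes and 4 of 11 basophil markers lower, and 0 of 6 neutrophil granule genes called (median −0.23).

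The genotype difference in members was last set against that in myeloid progenitors, cells gated on Mpo, Elane, Prtn3 and Ctsg outside the members. Of 10113 genes, the difference was higher in members for 7 (0.0692%) and lower for 4 (0.0396%) by the interaction term of edgeR's quasi-likelihood test, and 527 had an unadjusted p under 0.05. Without 1 library the total of 11 was 4 (TLR9-/- 1 left out), 15 (TLR9-/- 2), 30 (WT 1) and 21 (WT 2). None of these 11 is a basophil marker. Cyp4f18, a cytochrome P450 that inactivates leukotriene B4, was high in members and low in progenitors, at 352, 531, 380 and 542 CPM against 3.74, 2.65, 15.9 and 14.6 CPM. In members its levels overlapped between genotypes. In progenitors both TLR9-/- libraries were lower.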

How the data were processed

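Bone marrow mononuclear cells of 2 TLR9-/- and 2 WT mice were sequenced by the authors with a droplet 5′ kit, 1 library per mouse. The deposited matrices hold UMI counts per gene and cell, made by the authors with Cell Ranger 3.0.1 per the file headers, on mm10. The submitters' processing notes also name STAR and Seurat 2.3.4. Counts were not brought to equal depth and no authors' cell annotation was used.

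Cells with 200 to 10000 detected genes and at most 10% mitochondrial UMIs were kept, and the rule for members was applied to raw UMIs. Members and gene lists were chosen with earlier results of these data known. Member UMIs were summed per library. Genes passing edgeR's expression filter were compared by edgeR 4.0.16 (R 4.3.3) with TMM scaling and the two-sided quasi-likelihood test, without a block between genotypes and with library as a block within libraries. Benjamini-Hochberg adjusted p values under 0.05 were called. Rule genes, and gate genes of compared classes, received no call. The levels printed are CPM on unscaled totals. DESeq2 1.42.0 and the other alternatives stand in the closing section. Each fit was tested on simulated counts. Shares have 95% Clopper-Pearson intervals, which cover counting error only, and were compared by two-sided exact permutation tests (scipy 1.17.1).

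Genes named were those of the lists, up to 12 per direction with the smallest adjusted p and the same sign in each pair of same-numbered libraries or each library, up to 20 leading genes at 100 CPM or more in members by the ratio of CPM + 5, and up to 5 per direction for the interaction, of which 1 is not reported here. Myeloid progenitors held at least 5 UMIs and 1% of Mpo, Elane, Prtn3 and Ctsg. Coordinates are those of GENCODE M21 (GRCm38), which held 30934 of 31053 features, and start sites come from RefSeq (GRCm38.p6).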

Additional observations from a re-analysis of the deposited data

Results flagged for a closer look

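The genotype difference in members departed from that in myeloid progenitors for 8 named genes by the interaction term (edgeR quasi-likelihood, adjusted p under 0.05), given here as the log2 difference in members minus that in progenitors. For Cyp4f18 the value was 2.28 (adjusted p = 0.00369), from members that overlapped between genotypes and progenitors at 3.74, 2.65, 15.9 and 14.6 CPM. It was called in each of the 9 fits made.

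For Lyz2 the value was 2.30 (adjusted p = 0.0068), with members at 982, 555, 243 and 98.2 CPM and progenitors at 1430, 1573, 1706 and 1563 CPM. For S100a8, a neutrophil calcium-binding protein gene, it was 1.94, with members at 6648, 2629, 1506 and 2496 CPM and progenitors at 10863, 12555, 15711 and 25484 CPM. The 3 members with most UMIs held 56.6, 80.5, 75.7 and 87.9% of S100a8 in members, and 53.0, 74.1, 77.3 and 58.6% of Lyz2. The calls of Lyz2 and S100a8 were lost without TLR9-/- 1, and that of S100a8 also with DESeq2.

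Fhl2, a LIM domain gene, had −5.39, with members at 24.3, 26.9, 12.5 and 13.5 CPM and progenitors at 22.8, 24.7, 0.436 and 0.131 CPM. Its members were higher in both TLR9-/- libraries, as its progenitors were by far more. The call was lost without TLR9-/- 1, WT 1 or WT 2.

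The other 4 were immunoglobulin genes. Ighm had −1.46, with members at 58.3, 51.5, 140 and 156 CPM and progenitors at 117, 169, 139 and 128 CPM, and was lost without TLR9-/- 1, TLR9-/- 2 or WT 1 and with DESeq2. Igha had −2.82, on 24, 2, 119 and 0 UMIs in members. It was lost without TLR9-/- 1, with DESeq2 and with members at 10 UMIs and 0.5%, and turned without WT 1, to 3.36. Igkv3-2 had −13.71, on 0, 0, 403 and 0 UMIs in members, so that 1 library held all of them, and it was lost without WT 1 and with DESeq2. Ighg2b had 14.04, on 5, 0, 0 and 0 UMIs in members and 18, 0, 6 and 1213 in progenitors, and was lost without TLR9-/- 1 or WT 2, with DESeq2 and with the replicate number as a block. The last 2 values depend on libraries at 0 and are no measure of size.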

How the results depend on the processing

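The mean share of members was higher in TLR9-/- libraries under each alternative tried, with log2 ratios of 0.47 to 0.75, of 0.38 to 0.94 with 1 library left out, and of 0.65 with the replicate block, but the libraries overlapped over cells with at least 1000 UMIs, thinned or not (exact permutation p = 0.67). The unthinned form was added after seeing the data. The mean cycling share was higher as well, with overlap at 2000 UMIs (exact permutation p = 0.67). The difference was 6.12 percentage points at 2000 UMIs, 5.34 with at least 1 UMI of the list, 12.04 with at least 3, 4.45 with the DNA replication list, and 7.19 to 11.5 with 1 library left out.

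The 9 genes called between genotypes became 15 without scaling beyond library totals, 77 without a filter on low counts, 5 with members at 3 UMIs and 0.1%, 20 at 10 UMIs and 0.5%, 2 after thinning, 10 by DESeq2, and 37 to 67 with 1 library left out, where a lone library is assumed to vary like the other genotype. Library numbers are not stated to pair the samples, and same-numbered libraries deviated together with r = 0.24 across 6170 genes, which are not independent replicates. With the replicate block 32 genes were called, among them 3 myeloid progenitor and 4 erythroid genes. The 834 genes called between cycling and non-cycling members became 545 with at least 3 UMIs of the list, 315 on thinned UMIs, 319 with no replicate block, 417 by DESeq2, and 485 to 809 with 1 library left out. The 11 genes of the interaction became 51 without the filter, 31 with members at 10 UMIs and 0.5%, 73 with the replicate block, 3 by DESeq2, and 4 to 30 with 1 library left out. The causes were not tested.

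Single genes changed sign in 8 cases: in the genotype comparison, Cpa3 (−0.34 to 0.046 with 1 library left out, positive without WT 1), Fos (−1.43 to 1.84, negative without TLR9-/- 1), Ube2c (−0.069 without cycling members) and Ccl4 (−0.076 with members at 10 UMIs and 0.5%, −0.29 with the replicate block, and −3.02 to 1.66 with 1 library left out, negative without TLR9-/- 1 or WT 2), and in the interaction Igha (−4.58 to 3.36 with 1 library left out, positive without WT 1). Of the 24 genes named for the smallest adjusted p in the cycling comparison, 239 of 240 alternative values kept their call, and Ccl4 lost it with no replicate block (−1.67, adjusted p = 0.204). Calls of the other listed genes were fewer there: 1 basophil marker, 1 surface gene and 0 myeloid progenitor genes. With 71 to 185 members per library, genes of few UMIs rest on few cells.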
